A study of Mus musculus with 8 samples.

Results

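The mitochondrial genome transcripts are the rows of the expression table whose Ensembl identifier carries a symbol starting with mt- in the GENCODE M21 annotation of the mouse genome. This rule found 37 of the 54018 rows: 13 protein-coding genes, 2 ribosomal RNA genes and 22 transfer RNA genes. The rule uses names only, so whether a row is a member does not depend on its values. The rule itself was chosen with earlier results of these data known.

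Every mammalian mitochondrion carries a small circular genome that is read from both strands as long precursor RNAs. The tRNAs lie between most of the other genes, and cutting the precursor at the tRNAs frees the mRNAs and rRNAs, most of which then receive a poly(A) tail inside the organelle. The proteins are core subunits of respiratory complexes I, III, IV and V, while the rest of each complex, the polymerase, the processing enzymes and all mitochondrial ribosomal proteins are made from nuclear genes and imported. Stretches of mitochondrial sequence have also been copied into nuclear chromosomes during evolution, and these copies can be nearly identical to the original genes.

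The study sequenced polyadenylated RNA from mononuclear cells of the spleen, taken from C57BL/6 mice with leukaemia. The knockdown group (4 libraries) has the genotype Kdm1aKD;Eµ-TCL1A, in which doxycycline was given to leukaemic animals to induce knockdown of Kdm1a, a histone demethylase. The control group (4 libraries) has the genotype Eµ-TCL1A. Both groups carry the Eµ-TCL1A transgene, in which an immunoglobulin promoter and Eµ enhancer drive human TCL1A in B cells and which gives mice a disease resembling chronic lymphocytic leukaemia. The labels do not say whether control mice received doxycycline, what drives the knockdown construct, the age of the animals, or which libraries come from separate animals, so p-values measure the spread between libraries. Replicates are numbered as in the labels: 1, 2, 4 and 5 for knockdown, and 1 to 4 for control.

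Some properties of the libraries touch the results. The steps between low values put depth at 40100000 to 47000000 fragments per library. All 8 B cell marker genes passed the filter on low values. Markers of T cells, NK cells, monocytes, erythroid cells and other spleen cells were present too, so the RNA is a mixture. The groups were not alike in these markers. Median knockdown minus control differences in log2(FPKM + 1) were −0.66 for B cell, −0.95 for plasma cell, −0.91 for erythroid and −1.9 for neutrophil markers. They were 0.44 for T cell, 0.47 for NK cell, 0.94 for monocyte and 1.5 for megakaryocyte markers. In such bulk RNA, fewer cells of a type and less RNA per cell cannot be told apart. Kdm1a itself was at 20.2, 21, 15.5 and 15.6 FPKM in knockdown replicates 1, 2, 4 and 5 and at 24.2, 21.2, 24.1 and 31.1 FPKM in control replicates 1 to 4. The groups did not overlap (two-sided exact permutation test, p = 0.0286, the smallest possible over 70 assignments), but the difference of −0.45 in log2(FPKM + 1) missed the threshold of 0.05 over all genes (limma, adjusted p = 0.223). The female transcript Xist was high in all knockdown libraries and in 1 control library, and the Y-linked gene Ddx3y was above 0 only in the other 3 control libraries, so sex and genotype are largely confounded and cannot be told apart.

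The results below turn on a few stretches of sequence, shown here from the transcripts of the GRCm38 annotation, 5′ to 3′. The first set compares members with annotated pseudogenes on nuclear chromosomes; capitals mark the positions at which a copy differs from the member. The members are mt-Co2 (chrM:7013-7072, plus strand) with its copies Gm28661 (chr1:24615506-24615565, minus strand) and Gm13341 (chr2:22587903-22587962, minus strand), mt-Nd3 (chrM:9459-9518, plus strand) with Gm28438 (chr1:24613060-24613119, minus strand), and mt-Co1 (chrM:6390-6449, plus strand) with Gm29216 (chr1:24616129-24616188, minus strand).
mt-Co2: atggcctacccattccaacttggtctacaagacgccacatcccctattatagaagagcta
Gm28661: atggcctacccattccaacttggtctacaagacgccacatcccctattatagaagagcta
Gm13341: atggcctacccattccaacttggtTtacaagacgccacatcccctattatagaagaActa
mt-Nd3: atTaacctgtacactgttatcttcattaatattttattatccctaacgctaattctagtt
Gm28438: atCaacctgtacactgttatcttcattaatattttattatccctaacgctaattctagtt
mt-Co1: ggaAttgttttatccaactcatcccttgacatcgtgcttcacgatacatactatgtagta
Gm29216: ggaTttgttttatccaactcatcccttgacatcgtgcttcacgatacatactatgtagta

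In these windows of 60 bases Gm28661 had 0 mismatches to mt-Co2, and Gm13341 had 2. The only difference between mt-Nd3 and Gm28438 over 345 aligned bases was T3C, and the only one between mt-Co1 and Gm29216 over 483 aligned bases was A1066T, with positions counted from 1 at the member's 5′ end, the member's base first and the copy's base last.

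The second set shows members that share bases with a neighbour. The last 43 bases of mt-Atp8 (chrM:7927-7969, plus strand) are also the first bases of mt-Atp6, and capitals mark the start codon of mt-Atp6 and the stop codon of mt-Atp8. The ends of mt-Nd5 (chrM:13526-13565, plus strand) and mt-Nd6 (chrM:13552-13591, minus strand) lie on opposite strands and share 14 bases, in capitals. The tRNA gene mt-Ts1 (chrM:6870-6938, minus strand) is shown whole because it had the highest FPKM of all tRNA members; mt-Co1, on the plus strand, ends at position 6872, inside it.
mt-Atp8 end: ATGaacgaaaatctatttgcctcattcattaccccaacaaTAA
mt-Nd5: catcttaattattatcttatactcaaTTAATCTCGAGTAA
mt-Nd6: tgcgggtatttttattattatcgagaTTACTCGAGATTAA
mt-Ts1: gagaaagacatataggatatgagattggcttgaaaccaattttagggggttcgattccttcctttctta

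Whether the authors counted reads by strand is not given in the sources used here. Reads of mt-Nd5 and mt-Nd6 in the shared bases therefore cannot be told apart. Nor can reads of mt-Nd6, mt-Ts1 or another minus-strand member be told apart from reads of plus-strand RNA over the same bases.

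Levels are given in FPKM, the fragments of a transcript scaled by its length and by the library total, as deposited. The members together held 10.7, 9.94, 11 and 13% of the summed FPKM in knockdown replicates 1, 2, 4 and 5, and 12.7, 15.1, 10.9 and 7.47% in control replicates 1 to 4. The share was 11.2% ± 1.31 (SD, n = 4) in the knockdown group and 11.5% ± 3.19 (SD, n = 4) in the control group, and the groups overlapped. Control replicate 4 had the lowest share and control replicate 2 the highest, so the control libraries spanned all knockdown values. A sum over chosen genes is given no p-value.

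A large part of that share came from 2 short genes. mt-Atp8, a small subunit of ATP synthase whose transcript is 204 bases long, and the 69-base mt-Ts1, a serine tRNA, made up between 35.1% and 58.1% of the members' summed FPKM in the 8 libraries. The 22 tRNA genes made up between 18.5% and 32.5% of it in the knockdown libraries. In the control libraries they made up between 36.7% and 51.3%, and these ranges did not overlap. Their summed FPKM was 19555, 12404, 26233 and 25966 in the knockdown libraries, of which mt-Ts1 held 9599, 2663, 21395 and 16861. In the controls it was 34916, 41080, 30672 and 21938, of which mt-Ts1 held 27571, 30297, 27846 and 12790. The values of mt-Ts1 overlapped between the groups. Over all single genes tested, 13.1% did not overlap. As a share of all rows, the tRNA genes held 3.02% ± 0.87 (SD, n = 4) in knockdown and 4.59% ± 0.80 (SD, n = 4) in control libraries. The highest knockdown library had 3.76% and the lowest control library 3.83%, so the ranges were apart by less than the SD of either group. The fragment numbers behind the tRNA values are known at best as minimums, as described further on, and this share too is a description with no test.

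The levels of the 15 protein-coding and rRNA members fell into 2 separate ranges. Of these, 10 had medians over the 8 libraries between 368 and 21565 FPKM, and the other 5 had medians between 2.83 and 19.3 FPKM. From the highest median to the lowest, the 10 were mt-Atp8, mt-Co1, mt-Cytb, mt-Nd1, mt-Nd6, mt-Nd2, mt-Nd5, mt-Nd4, mt-Rnr2 and mt-Rnr1. Neighbours in this order overlapped in their library values, except mt-Nd4, whose lowest value of 577 FPKM was above the highest of mt-Rnr2, 551 FPKM. Within each library, mt-Atp8 was always above mt-Co1 (by 1.92 to 3.20 times) and mt-Co1 always above mt-Cytb (by 1.18 to 1.66 times).

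**Figure D1:**
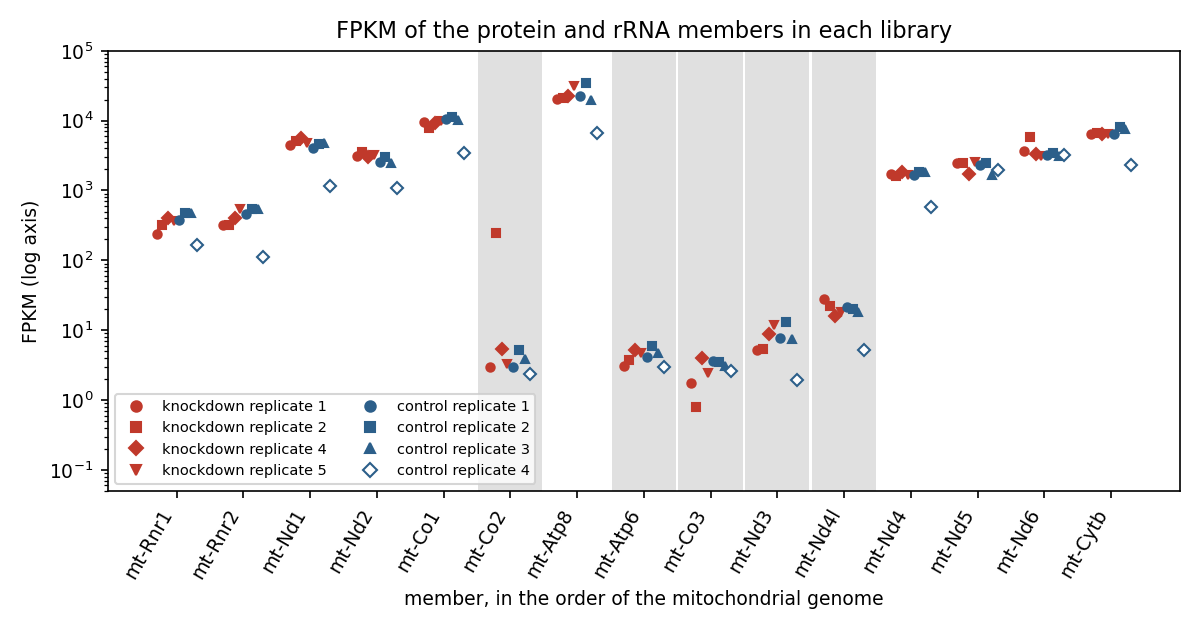
FPKM on a log axis of each protein-coding and rRNA member, in the order of the mitochondrial genome, with 1 point per library, coloured by group, control replicate 4 as an open symbol, and grey bands behind the 5 members covered almost whole by a nuclear copy of at least 98% identity. The 5 members with medians between 2.83 and 19.3 FPKM sit far below the other 10, mt-Co2 of knockdown replicate 2 stands alone at 245 FPKM, and the open symbol is the lowest of the 8 libraries in 12 of the 15 members.

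Complex I, the NADH dehydrogenase, takes 7 of its subunits from this genome. mt-Nd1, a membrane subunit, was at 4457, 5146, 5576 and 4719 FPKM in knockdown replicates 1, 2, 4 and 5 and at 4022, 4611, 4732 and 1173 FPKM in control replicates 1 to 4. Control replicate 4 lay far below all other libraries, and the groups overlapped. The difference was 0.64 ± 0.47 (SE) in log2(FPKM + 1), with a 95% interval from −0.41 to 1.68 (limma, adjusted p = 0.466), and it was 0.16 without control replicate 4.

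mt-Nd2, another membrane subunit of complex I, was at 3071, 3553, 3029 and 3198 FPKM in the knockdown libraries and at 2581, 3063, 2481 and 1097 FPKM in the controls. Control replicate 2 reached into the knockdown range, and the other 3 controls lay below it. The difference was 0.57 with a 95% interval from −0.22 to 1.37 (limma, adjusted p = 0.394; two-sided exact permutation p = 0.0571). Without control replicate 4 it was 0.25.

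mt-Nd4, a proton-pumping subunit, was at 1722, 1631, 1843 and 1679 FPKM against 1652, 1821, 1838 and 577 FPKM. All libraries except control replicate 4 lay within a narrow band. The difference was 0.36, with an interval from −0.50 to 1.22 (limma, adjusted p = 0.622), and −0.042 without control replicate 4.

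mt-Nd5, the largest subunit encoded here, was at 2512, 2513, 1720 and 2577 FPKM in the knockdown libraries and at 2346, 2503, 1648 and 1979 FPKM in the controls. The lowest values came from knockdown replicate 4 and control replicate 3. For mt-Nd5 the difference was 0.14, with an interval from −0.48 to 0.75 (limma, adjusted p = 0.806). It ranged from 0.022 without control replicate 3 to 0.28 without knockdown replicate 4.

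mt-Nd6 is the only protein-coding member on the minus strand, which it shares with 8 tRNA genes. Its values may hold reads of plus-strand RNA over its whole length, since strand use is not known. mt-Nd6 was at 3710, 5795, 3299 and 3126 FPKM in the knockdown libraries and at 3206, 3467, 3085 and 3223 FPKM in the controls. Knockdown replicate 2 was high, and the other 7 libraries were close together. The difference was 0.25, with an interval from −0.43 to 0.93 (limma, adjusted p = 0.666), and 0.055 without knockdown replicate 2.

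The remaining complex I members were low. mt-Nd3, which completes a flexible loop of the complex, was between 5.21 and 11.9 FPKM in the knockdown libraries and between 1.95 and 13.3 FPKM in the controls. mt-Nd4l, whose mRNA also carries mt-Nd4, was between 16.1 and 27.5 FPKM in the knockdown libraries and between 5.25 and 21.9 FPKM in the controls. Neither passed the test (limma, adjusted p = 0.852 and 0.524).

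Complex III has one subunit from this genome, cytochrome b. Its gene mt-Cytb was at 6438, 6560, 6475 and 6519 FPKM in the knockdown libraries and at 6406, 8224, 7469 and 2331 FPKM in the controls. The knockdown libraries agreed closely, at 6498 ± 52.9 (SD, n = 4), while the controls lay on both sides of them, at 6107 ± 2626 (SD, n = 4). The difference was 0.24, with an interval from −0.75 to 1.23 (limma, adjusted p = 0.787), and −0.17 without control replicate 4.

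Complex IV, cytochrome c oxidase, takes its 3 catalytic core subunits from this genome. mt-Co1, the subunit that holds the site of oxygen reduction, was at 9486, 7769, 9127 and 9826 FPKM in the knockdown libraries and at 10622, 11291, 10315 and 3482 FPKM in the controls. Controls 1 to 3 were all above the knockdown range and control replicate 4 was far below it. The difference was 0.15 with an interval from −0.87 to 1.18 (limma, adjusted p = 0.873), and without control replicate 4 it was −0.25, the opposite sign.

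mt-Co2, the subunit that receives electrons from cytochrome c, was at 3.0, 245, 5.32 and 3.27 FPKM in knockdown replicates 1, 2, 4 and 5 and at 2.98, 5.16, 3.90 and 2.35 FPKM in control replicates 1 to 4. Knockdown replicate 2 stood apart from all 7 other libraries, which were at 2.35 to 5.32 FPKM. The difference of 1.51 had an interval from −1.07 to 4.09 (limma, adjusted p = 0.484) and was 0.09 without that library. mt-Co3, the remaining core subunit, was between 0.788 and 3.98 FPKM in the knockdown libraries and between 2.60 and 3.63 FPKM in the controls (limma, adjusted p = 0.406).

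Complex V, ATP synthase, takes mt-Atp6 and mt-Atp8 from a single mRNA. mt-Atp8 was at 20466, 20894, 22475 and 31422 FPKM in the knockdown libraries and at 22236, 34689, 19772 and 6714 FPKM in the controls. Apart from the low value of control replicate 4, the groups covered much the same range, and the difference of 0.39 had an interval from −0.90 to 1.68 (limma, adjusted p = 0.729). It was −0.081 without control replicate 4. mt-Atp6, the proton channel subunit, was at 3.12, 3.71, 5.27 and 4.76 FPKM against 4.16, 6.03, 4.77 and 2.94 FPKM (limma, adjusted p = 0.906). The mt-Atp8 to mt-Atp6 ratio was between 2285 and 6599, although both are read from that mRNA.

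The rRNAs of the mitochondrial ribosome were lower than most mRNAs in this polyadenylated RNA. mt-Rnr1, the small-subunit rRNA, was at 240, 324, 402 and 360 FPKM in the knockdown libraries and at 377, 483, 469 and 163 FPKM in the controls. mt-Rnr2, the large-subunit rRNA, was at 323, 323, 404 and 536 FPKM against 462, 551, 543 and 111 FPKM. In both genes control replicate 4 was the lowest library, and the groups overlapped (limma, adjusted p = 0.920 and 0.897).

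Of the 37 members, 21 passed the filter on low values (1 FPKM or more in 4 or more of the 8 libraries): all 13 protein-coding genes, both rRNA genes and 6 of the 22 tRNA genes. None of the 21 passed an adjusted p of 0.05 in either direction by limma, and 0 were under an unadjusted p of 0.05. Over all 12890 genes tested, 1.74% passed, 1.63% as higher and 0.109% as lower in the knockdown, and 19.2% were under the unadjusted p. The groups overlapped in all 21 members, against 13.1% of all genes without overlap. The intervals of single members were wide. Of the protein-coding and rRNA members, all but mt-Rnr1, mt-Atp6, mt-Co3, mt-Nd5 and mt-Nd6 had an interval that included a difference of 1, a doubling. For the members whose interval included it, a rise of that size was neither shown nor bounded.

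The median difference in log2(FPKM + 1) was 0.25 over the 13 protein-coding members, 11 of them positive, and 0.13 over all genes tested. Without control replicate 4 the median of the 13 was −0.04, and that over all genes was 0.09. For the 2 rRNA members the median was 0.03, and for the 6 tRNA members −2.09. The tRNA differences ran from −4.77 to 5.57, with 2 positive and 4 negative, and their median SE was 2.55. All of the 6 but mt-Ts1 were at 0 in at least 1 library, so their differences depend on the pseudocount. Scaling moved the median over all genes from 0.13 to 0.00 with median-of-ratios scaling and to −0.03 with quantile normalization.

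**Figure D2:**
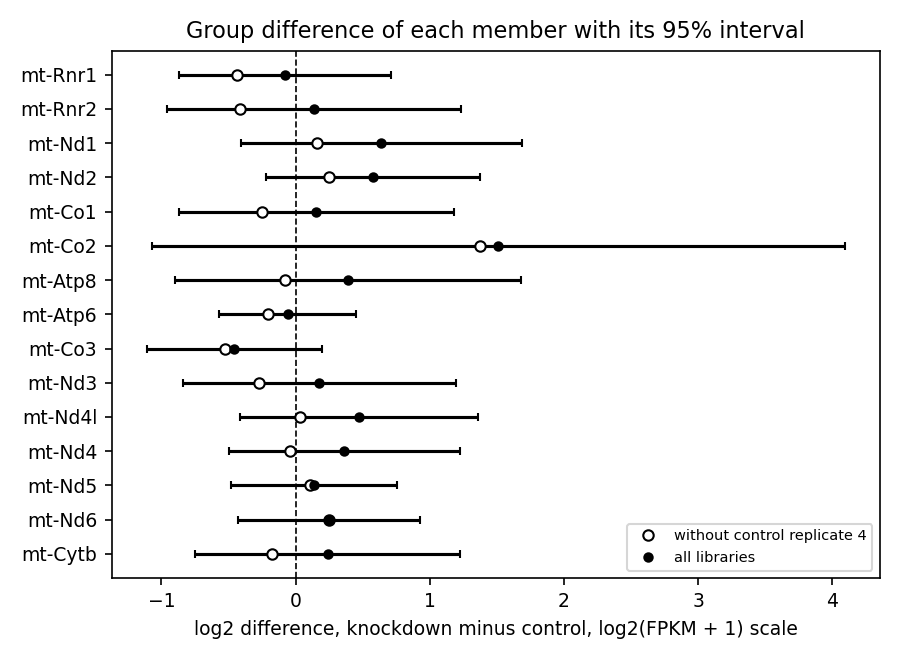
Knockdown minus control difference in log2(FPKM + 1) for each protein-coding and rRNA member, with its 95% interval from limma and, as open symbols, the value without control replicate 4. Every interval covers 0, and for mt-Co1, mt-Cytb, mt-Atp8, mt-Rnr2, mt-Nd3 and mt-Nd4 the open symbol lies on the other side of 0.

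Control replicate 4 had lower mitochondrial mRNA and rRNA values than each other control, except for mt-Nd5 and mt-Nd6, which lay within the range of the other controls. As a percentage of the mean of control replicates 1 to 3, its level was 20.5 for mt-Nd3, 26.0 for mt-Nd4l, 21.3 for mt-Rnr2, 26.3 for mt-Nd1 and mt-Atp8, 31.6 for mt-Cytb, 32.4 for mt-Co1 and 32.6 for mt-Nd4. It was 36.9 for mt-Rnr1 and 40.5 for mt-Nd2, but 91.4 for mt-Nd5 and 99.1 for mt-Nd6. Reads of mt-Nd6 cannot be told apart from reads of plus-strand RNA over it, which also limits its ratios. The 3 members with the lowest FPKM lay in between, at 58.5 for mt-Co2, 59 for mt-Atp6 and 76.8 for mt-Co3. The mt-Nd6 to mt-Cytb ratio, which does not depend on how a library is scaled, was 1.38 there and between 0.413 and 0.883 in the other 7 libraries. The mt-Nd5 to mt-Cytb ratio was 0.849 there and between 0.221 and 0.395 elsewhere. The ratio of mt-Co1 to mt-Cytb, in contrast, was 1.49 in control replicate 4 and between 1.18 and 1.66 in the other libraries.

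The same library had the lowest summed FPKM over all rows, 572660 against 671732 to 762888. The sum over the 8 T cell markers was 142 FPKM there and 203 to 472 elsewhere, and that over the 7 monocyte and macrophage markers was 99.5 against 212 to 680. Sums of NK cell, megakaryocyte and dendritic cell markers were also the lowest of all libraries, whereas the 8 B cell markers, at 3675, and the erythroid markers, at 4523, lay within the range of the others. No marker list had a gene at 0 in all libraries. The part of other cell types in the mitochondrial values of this library was not tested.

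**Figure D3:**
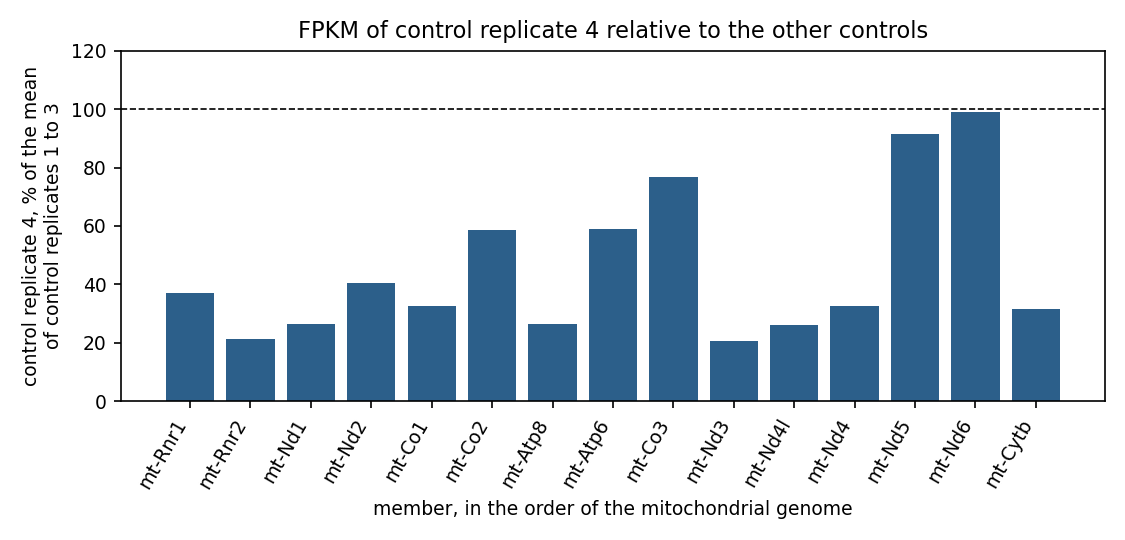
Level of each protein-coding and rRNA member in control replicate 4 as a percentage of the mean of the other 3 control libraries, with bars starting at 0. Bars of the members with medians of at least 100 FPKM stand between 21.3 and 40.5 except those of mt-Nd5 and mt-Nd6, at 91.4 and 99.1.

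Ratios between members are free of library scaling and were compared for the 10 members with a median of at least 100 FPKM. Of the 45 ratios, 7 did not overlap between the groups (15.6%), against 11.0% of the 322003 ratios between the 803 genes of the whole table with a mean of at least 100 FPKM. The share of the members was thus near the background. The 7 were those of mt-Nd1 to mt-Co1, mt-Nd4 and mt-Cytb, of mt-Nd2 to mt-Co1, and of mt-Rnr1 to mt-Nd1, mt-Nd2 and mt-Nd4. How often a member recurs among them has no background here. The ranges below belong to ratios picked for not overlapping and only describe them. The mt-Nd1 to mt-Cytb ratio was 0.692 to 0.861 in the knockdown libraries and 0.503 to 0.634 in the controls, and the mt-Nd1 to mt-Co1 ratio was 0.470 to 0.662 against 0.337 to 0.459. The mt-Nd2 to mt-Co1 ratio was 0.324 to 0.457 against 0.241 to 0.315. For mt-Rnr1 to mt-Nd1 the order was the opposite, with 0.0538 to 0.0763 in the knockdown libraries and 0.0937 to 0.139 in the controls.

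The 5 members with low medians were those with a near-identical annotated copy in the nuclear genome. Comparing each member with all nuclear transcripts of the annotation by BLAST, copies of at least 98% identity covered 99.6% of mt-Co2 and of mt-Atp6, 99.9% of mt-Co3, 99.1% of mt-Nd3 and 99.0% of mt-Nd4l. Such copies covered 63.6% of mt-Nd4 and 31.3% of mt-Co1, and no base of the other 8 protein-coding and rRNA members. mt-Co2 matched Gm28661 without a mismatch over 681 bases, mt-Atp6 matched Gm10925 over 678, mt-Co3 matched Gm28437 over 783, and mt-Nd4l matched Gm10222 over 294. The best copies of mt-Nd2, mt-Nd5, mt-Nd6 and mt-Cytb had at most 96.7% identity.

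**Figure D4:**
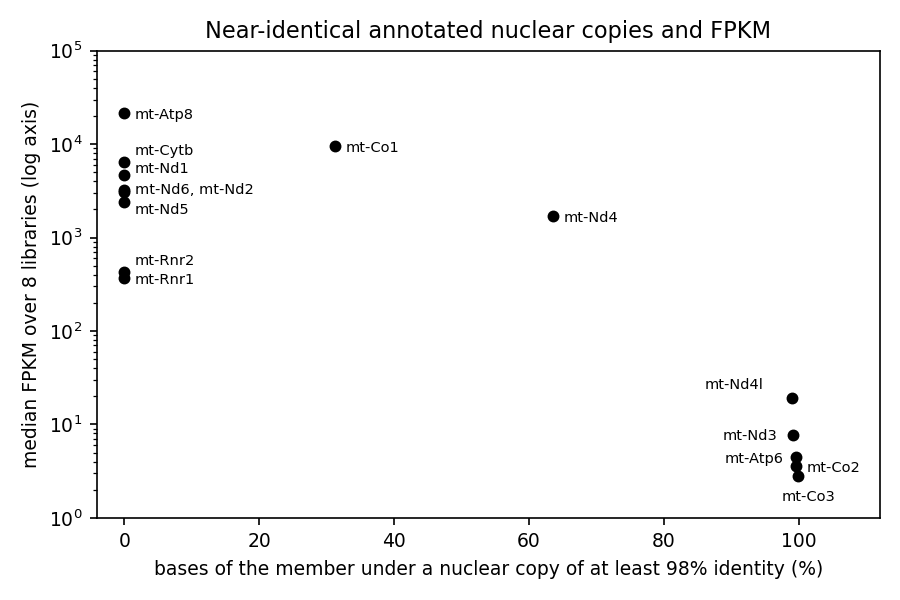
Median FPKM over the 8 libraries on a log axis against the percentage of the member's bases under a nuclear copy of at least 98% identity, with 1 point per protein-coding or rRNA member. The 5 members between 99.0% and 99.9% lie between 2.83 and 19.3 FPKM, while mt-Nd4 at 63.6% and mt-Co1 at 31.3% lie with the uncovered members.

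The copies formed one block. The copies, 7 in all, of mt-Co1 (its end), mt-Co2, mt-Atp6, mt-Co3, mt-Nd3, mt-Nd4l and mt-Nd4 (its start) lay on chromosome 1 between 24611535 and 24616188 in GRCm38, in the order they have in the mitochondrial genome. The block spans 4654 bases, and the matching stretch of the mitochondrial genome, from 6390 to 11042, spans 4653. Of the 6 distances between neighbouring copies, 5 equalled those in the mitochondrial genome. mt-Atp8 and 5 tRNA genes including mt-Ts1 lie inside that mitochondrial stretch, but the annotation names no near-identical transcript for mt-Atp8 or mt-Ts1, and the bases between the annotated copies were not examined.

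The copies themselves had low values. Gm28661 was between 0.578 and 4.68 FPKM, Gm28437 between 0.457 and 3.79, and Gm10222 between 0.576 and 2.0. Gm10925, the copy of mt-Atp6, was between 0.256 and 10.2 FPKM, so in knockdown replicate 4 and control replicate 3 it exceeded mt-Atp6 itself. Gm29216, the copy of the end of mt-Co1, was at 42.5 FPKM in control replicate 3 and between 0.887 and 7.17 FPKM in the other libraries. In knockdown replicate 2, where mt-Co2 was at 245 FPKM, Gm28661 was at 0.711 FPKM and the chromosome 2 copy Gm13341 at 1.76 FPKM, both within the range of the other libraries. How the authors treated reads that match several places is not given in the sources used here. The values of these 5 members and their copies are therefore uncertain. The same limit touches the covered parts of mt-Nd4 (63.6% of its bases) and mt-Co1 (31.3%), and so their levels and the sums and ratios that use them. The part of shared reads in all these values was not tested.

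The depth behind the values differed widely between members. Low FPKM values lay in steps, within 0.1 of a whole multiple of 1 fragment for 98.2 to 99.2% of values of long genes. Evenly spread values would give 20% with no fit. Depth and fragment length were chosen to maximize this agreement on the same values, so the percentages are no separate check. From the steps mt-Co1 rested on 195271 to 686959 fragments per library and mt-Nd4 on 28424 to 101632. mt-Co3 rested on 19 to 111 fragments, mt-Nd3 on 14 to 95, and mt-Co2 on 49 to 124 except for 4839 in knockdown replicate 2. Counting error is therefore far smaller for the abundant members than for the low ones.

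mt-Atp8 had the highest FPKM of the protein-coding members but not the most fragments. A transcript of 204 bases is close to the length of a fragment, about 170 to 180 bases on average in 7 libraries and 225 bases in knockdown replicate 2, so its effective length was only 21.6 to 46.5 bases. It rested on 11761 to 64712 fragments, fewer than mt-Co1 in every library. With fragments divided by full length (per kilobase) in place of effective length and by the library total, scaled as FPKM is, its median was 4519, against 8584 for mt-Co1. In that unit knockdown replicate 2 had 2217 for mt-Atp8, lower than all libraries but control replicate 4, whereas its FPKM of 20894 was close to the median. As a share of estimated fragments, the 15 protein-coding and rRNA members held 3.46, 3.18, 3.38 and 3.59% in knockdown replicates 1, 2, 4 and 5 and 3.53, 4.02, 3.50 and 1.46% in control replicates 1 to 4.

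**Figure D5:**
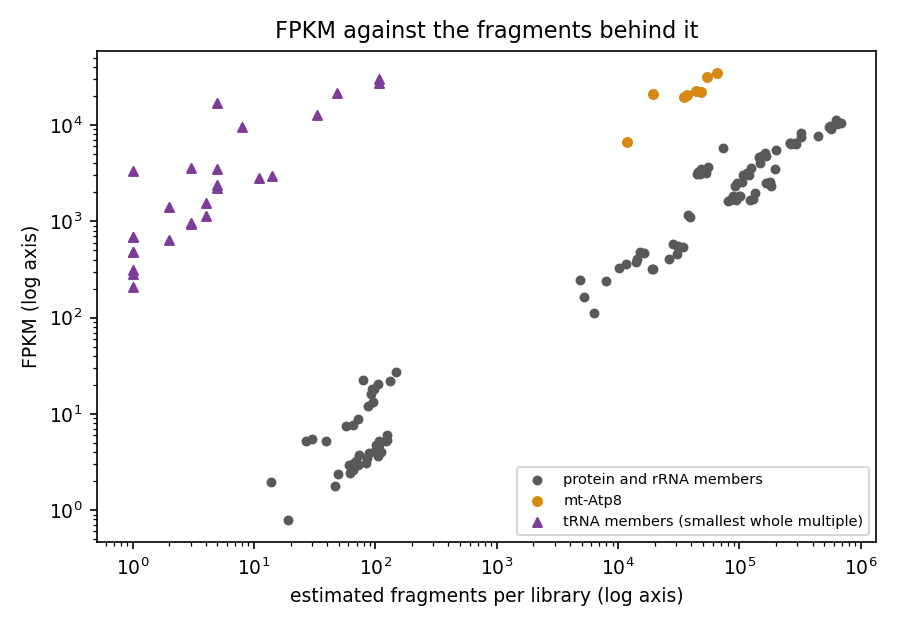
FPKM against the estimated number of fragments behind it, both on log axes, with 1 point per member and library for the protein-coding and rRNA members, mt-Atp8 in orange, and tRNA members as triangles at their smallest possible whole number of fragments. tRNA values reach 3372 FPKM at 1 smallest multiple, and mt-Atp8 lies above the band of the longer members.

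Most values of the tRNA members were 0. Mature tRNAs are shorter than the sequenced fragments and carry no long poly(A) tail, and the part of these traits in the zeros was not tested. Of the 22 genes, 12 were at 0 in all libraries, 10 were above 0 in at least 1 library, and only mt-Ts1 was above 0 in all 8. The values split by strand. All 12 genes at 0 were on the plus strand. The 10 others were the 8 tRNA genes of the minus strand, with mt-Tl1 and mt-Tw of the plus strand. The cause of this split was not tested. Of the 176 tRNA values, 44 were above 0. A smallest whole multiple was found for 26 of them from genes of the same length, and 19 of these were at most 5 multiples. A multiple stands for 1 or more fragments, so these numbers are minimums, and the other values above 0 had none.

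mt-Ts1 was at 9599, 2663, 21395 and 16861 FPKM in knockdown replicates 1, 2, 4 and 5 and at 27571, 30297, 27846 and 12790 FPKM in control replicates 1 to 4. Control replicates 1 to 3 were above all knockdown libraries, and control replicate 4 lay among them. The difference was −1.25, with a 95% interval from −2.79 to 0.29 (limma, adjusted p = 0.342), and −0.63 without knockdown replicate 2. In the 6 libraries with a multiple these values were 5 to 108 multiples, each at least 1 fragment. Knockdown replicate 2, with the lowest value, was also the library with the longest fragments.

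mt-Tc, a cysteine tRNA on the minus strand, had the smallest adjusted p of all members (limma, adjusted p = 0.287). It was at 1761, 7628, 1894 and 1643 FPKM in the knockdown libraries and at 0, 3089, 0 and 2667 FPKM in the controls. The controls at 0 made the difference of 5.57 depend on the pseudocount, and the groups overlapped. The difference was 3.65 without control replicate 1 and 3.65 without control replicate 3, each time with the other control at 0 kept. Leaving out both was not done.

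The other tRNA genes that passed the filter were also at 0 in at least 1 library each. mt-Tq was between 0 and 2648 FPKM in the knockdown libraries and between 633 and 3493 in the controls. mt-Te was between 0 and 3600 against 0 and 2808, mt-Tp between 0 and 1544 against 694 and 2391, and mt-Tn was above 0 in 1 knockdown and 3 control libraries. In control replicate 4 the 2391 FPKM of mt-Tp were 5 multiples of 478 FPKM, which was also the value of mt-Tw and mt-Ty there.

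Genes of the nucleus that make, process or join the mitochondrial transcripts were followed in 9 lists with 146 genes, of which 143 were tested. None passed an adjusted p of 0.05 in either direction by limma (background 1.74%), 17 were under an unadjusted p of 0.05 (background 19.2%) and 11 did not overlap between the groups (background 13.1%). The median difference over the 143 was 0.30, beside 0.13 over all genes tested, of which 8207 of 12890 (63.7%) were positive.

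Among the 10 genes of mitochondrial transcription, 5 differences were positive and the median was 0.01. Tfam, which packages the mitochondrial genome and starts its transcription, was at 44.9, 41.8, 44.6 and 39.9 FPKM in the knockdown libraries and at 41.4, 42.0, 44.6 and 19.8 FPKM in the controls. Its lowest value was that of control replicate 4, the library with low mitochondrial mRNA. Polrmt, the mitochondrial RNA polymerase, was at 24.0 FPKM there, the highest of the 8 libraries, and had a difference of −0.08. Tfb2m, its cofactor, was at 7.35 FPKM in control replicate 4 and between 11.9 and 16.4 elsewhere. The termination factor family genes Mterf2, Mterf1a and Mterf1b had differences of −0.44, −0.28 and −0.27, none past the threshold (limma, adjusted p = 0.343, 0.447 and 0.460).

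The 14 genes of mitochondrial DNA replication and maintenance had a median of 0.05. Polg, the DNA polymerase, had a difference of −0.05 and Twnk, the helicase, 0.13. The smallest p-values of this list were those of Mpv17 (−0.32), Lig3 (0.29), which encodes a DNA ligase, and Primpol (0.24), which encodes a primase. Primpol was at 0.049 without control replicate 4, and Mpv17 at −0.20 without knockdown replicate 4.

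Of the 21 genes for processing and stability of mitochondrial RNA, 20 differences were positive, 6 were under an unadjusted p of 0.05 and 5 did not overlap between the groups, with a median of 0.33. Over all genes 63.7% were positive, 19.2% were under that p and 13.1% did not overlap. Lrpprc, which stabilizes mitochondrial mRNAs, was at 18.2, 24.1, 32.1 and 24.8 FPKM in the knockdown libraries and at 16.5, 13.3, 16.6 and 15.8 FPKM in the controls. All knockdown libraries were above all controls, by 0.62 ± 0.19 (SE), without passing the threshold (limma, adjusted p = 0.143; two-sided exact permutation p = 0.0286). Slirp, its partner protein, differed by 0.73 (limma, adjusted p = 0.248) and by 0.48 without knockdown replicate 4. The differences were 0.67 for Pnpt1, an RNA-degrading enzyme (adjusted p = 0.148), and 0.51 for Grsf1, an RNA granule protein (adjusted p = 0.198).

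Of the 21 genes of mitochondrial translation, 15 differences were positive and 4 were under an unadjusted p of 0.05, with a median of 0.13; over all genes 63.7% were positive, 19.2% were under that p, and the median was also 0.13. Iars2, an isoleucine tRNA ligase, differed by 0.62 (limma, adjusted p = 0.140), Gfm1, an elongation factor, by 0.62 (adjusted p = 0.222), and Taco1, a translational activator of mt-Co1, by 0.43 (adjusted p = 0.225). The 8 tested regulators had a median of 0.15. Nrf1, a transcription factor for nuclear genes of respiration, differed by 0.30, Gabpb1 by 0.15, Ppargc1b by 0.16 and Yy1 by −0.19, while Ppargc1a was at most 0.604 FPKM and was not tested.

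The nuclear subunits of complexes I, III, IV and V are the partners of the mitochondrial ones. Of 69 tested, 68 differences were positive, 7 were under an unadjusted p of 0.05, 4 did not overlap and 0 passed the threshold (limma, lowest adjusted p = 0.129), with a median of 0.41. Over all genes 63.7% were positive, 19.2% were under that p and 13.1% did not overlap, so the last 2 counts were below the background. By complex the medians were 0.39, 0.40, 0.40 and 0.43. Atp5g1, which encodes the rotating c subunit of ATP synthase, was at 128, 176, 295 and 165 FPKM in the knockdown libraries and at 104, 99.9, 111 and 84.9 FPKM in the controls. Its difference was 0.86, and the groups did not overlap (limma, adjusted p = 0.129). Its partner gene Atp5g3 differed by 0.56 and Atp5b, which encodes the catalytic beta subunit, by 0.45 (adjusted p = 0.270 and 0.381). In complex I, Ndufv1, which takes electrons from NADH, differed by 0.69 (adjusted p = 0.164), the accessory subunit gene Ndufb8 by 0.69 (adjusted p = 0.236), and Ndufs1, an iron-sulfur subunit, by 0.59 (adjusted p = 0.219). In complex III the differences were 0.52 for the core protein gene Uqcrc1, 0.56 for Cyc1, which encodes cytochrome c1, and 0.84 for the small subunit gene Uqcrq (adjusted p = 0.208, 0.252 and 0.257). In complex IV they were 0.58 for Cox6a1, 0.47 for Cox5a and 0.45 for Cox5b (adjusted p = 0.277, 0.289 and 0.370). None of these passed the threshold by limma. Without knockdown replicate 4 the differences were 0.34 for Cox6a1, 0.28 for Cox5a, 0.22 for Cox5b, 0.53 for Uqcrq, 0.36 for Atp5g3 and 0.24 for Atp5b, and without control replicate 4 that of Ndufb8 was 0.45.

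The summed FPKM of the 70 nuclear subunits found was 8296, 9779, 15424 and 10120 in knockdown replicates 1, 2, 4 and 5 and 8196, 9539, 10111 and 5578 in control replicates 1 to 4. The highest sum was that of knockdown replicate 4, which also had by far the highest sum of erythroid markers, 28939 FPKM against 859 to 8309 elsewhere, and the lowest was that of control replicate 4. Without control replicate 4 the median over the 69 subunits was 0.19, with 59 positive, and without replicate 4 of both groups it was 0.02. The part of erythroid cells in the nuclear subunit values was not tested.

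The 7 mitochondrial protein-coding members with a median of at least 100 FPKM other than mt-Atp8 summed to 31397, 32967, 31069 and 31645 FPKM in the knockdown libraries and to 30836, 34980, 31568 and 13864 FPKM in the controls. Their sum in knockdown replicate 4 was close to those of the other knockdown libraries, unlike the nuclear sum. The ratio of the mitochondrial to the nuclear sum was 3.78, 3.37, 2.01 and 3.13 in the knockdown libraries and 3.76, 3.67, 3.12 and 2.49 in the controls. Both groups had their lowest ratio in replicate 4, and the groups overlapped, at 3.07 ± 0.76 (SD, n = 4) against 3.26 ± 0.59 (SD, n = 4).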

How the data were processed

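The authors deposited FPKM values for 54018 gene identifiers in 8 libraries, 4 per group, and the labels gave groups and replicate numbers. CASAVA and Cufflinks are named, with no version, in the submitters' processing notes. Aligner, genome build, annotation, strand use and treatment of multiply matching reads: not given in the sources used here. Each FPKM value depends on an estimated effective length, so short transcripts gain most from that correction. GENCODE M21 (GRCm38) named 53865 identifiers.

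The 12890 genes with 1 FPKM or more in 4 or more libraries were tested on log2(FPKM + 1). The fit used limma 3.58.1 (R 4.3.3), a trend of variance with mean, Benjamini-Hochberg adjustment, no covariate and a threshold of 0.05. Differences are on that scale and understate changes of low genes. Single genes were also compared by two-sided exact permutation tests over 70 assignments. On simulated data with the variation of these libraries, the fit recovered 36.5% of genes changed by 1 log2 unit, 86.4% by 2 and 96.8% by 3. In each of 5 runs the changed genes were drawn from all 12890 genes. The median SE was 0.24 over all genes tested, 0.46 over the members and 2.55 over the tRNA members, so these percentages do not describe the members.

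Fragment numbers came from the spacing of low FPKM values. Between 94.4 and 96.9% of values of short genes lay within 0.1 of a whole multiple under the estimated fragment lengths. The spread of fragment lengths was fitted to those same values, so this is no separate check. FPKM keeps no exact counts, so these are estimates, and they cover counting error only. Nuclear copies were sought among annotated nuclear transcripts with BLAST 2.17.0 at 90% identity or more over 50 bases or more. Tables and plots used Python 3.11.15, pandas 2.3.3, numpy 2.4.6, scipy 1.17.1 and matplotlib 3.10.9.

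The members and lists were chosen with earlier results of these data known. All members were to be accounted for, the protein-coding, rRNA and filter-passing tRNA members named, and of each nuclear list the 3 genes with the smallest p, plus 12 fixed genes. Single values outside that rule, such as those of mt-Tw, mt-Ty and some copies, were named after their values were seen. Alternatives were other pseudocounts, filters, scalings, weights, a replicate block and left-out libraries. The share of estimated fragments was added after seeing the data.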

Additional observations from a re-analysis of the deposited data

Results flagged for a closer look

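In each group of 4 libraries, a value was picked out when its gap to the nearest other value exceeded Dixon's 95% critical share of the group's whole range. Chance picks out about 1 in 20 groups of independent normal values. Here 10 of 50 were picked out, 5 of them in control replicate 4. The groups share the same 8 libraries, the ratios reuse members, and many tRNA values are 0. The count of 10 is therefore a description and does not measure an excess over chance. In control replicate 4, mt-Co1 was at 3482 FPKM with the other controls at 10315 to 11291, mt-Nd4 at 577 FPKM with the others at 1652 to 1838, and mt-Ts1 at 12790 FPKM with the others at 27571 to 30297. In the same library mt-Tp was high, at 2391 FPKM against 694 to 942, and the mt-Nd6 to mt-Cytb ratio was high, at 1.38 against 0.413 to 0.501.

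In knockdown replicate 2, mt-Co2 was at 245 FPKM with the other knockdown libraries at 3.0 to 5.32, and mt-Tc at 7628 FPKM with the others at 1643 to 1894. In knockdown replicate 1, mt-Tn was at 1884 FPKM while the other 3 were listed at 0. In knockdown replicate 4, mt-Nd5 was low, at 1720 FPKM against 2512 to 2577, and its ratio to mt-Cytb was 0.266 against 0.383 to 0.395. The mt-Tp value was 5 multiples and the mt-Ts1 value 33 multiples of the smallest step, each 1 or more fragments, and the other tRNA values had no such number.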

How the results depend on the processing

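No mitochondrial member and no nuclear list gene passed the threshold under the chosen settings, and no member did under any of the 19 alternatives; the lowest adjusted p of a member was 0.0568 (limma with array weights, mt-Ts1). The median over members was −0.23 with array weights. The count over the whole table, 224, was 24 with a pseudocount of 5, 2 without filter, 71 with a mean of at least 5 FPKM, 131 with median-of-ratios scaling, 126 with quantile normalization, 761 with array weights and 120 without replicate 4 of both groups. It was 8 without control replicate 4, the lowest of 8 to 333 with 1 library left out, and 13 when knockdown replicate 2 was left out. Leaving out control replicate 1 gave 90, control replicate 2 gave 46, and control replicate 3 gave 29. The cause of these shifts was not tested.

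Differences that changed sign, in log2(FPKM + 1): with array weights mt-Rnr2 −0.43, mt-Co1 −0.23, mt-Atp8 −0.064, mt-Nd3 −0.40, mt-Te −1.42, mt-Cytb −0.074, Polrmt 0.096 and Polg 0.069; without replicate 4 of both groups mt-Rnr2 −0.44, mt-Co1 −0.26, mt-Atp8 −0.061, mt-Nd3 −0.35, mt-Nd4 −0.076, mt-Cytb −0.17, Primpol −0.0062 and Tfam −0.017; with median-of-ratios scaling mt-Rnr2 −0.0074 and mt-Nd5 −0.0096; with quantile normalization mt-Nd3 −0.0093, Gabpb1 −0.025 and Twnk −0.066. With 1 library left out, the ranges were −0.43 to 0.086 for mt-Rnr1, −0.41 to 0.35 for mt-Rnr2, −0.25 to 0.31 for mt-Co1, −0.081 to 0.71 for mt-Atp8, −0.21 to 0.072 for mt-Atp6, −0.27 to 0.49 for mt-Nd3, −0.042 to 0.51 for mt-Nd4, −2.07 to 3.50 for mt-Te, −0.17 to 0.43 for mt-Cytb, −0.18 to 0.042 for Polrmt and −0.17 to 0.066 for Polg. All other differences of named genes kept their sign.

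Replicate numbers 1, 2 and 4 occur in both groups, but deviations of same-numbered libraries correlated at 0.163, 0.0469 and −0.118, so the numbers were not taken as pairs. With the replicate block, the whole-table count was 0, and the sign changed for mt-Rnr1 (0.024), mt-Nd5 (−0.033), mt-Te (−3.09), Polrmt (0.098) and Polg (0.088).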
